A study of Mus musculus with 12 samples.

Results

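The Gimap genes encode GTPases of immunity-associated proteins, small GTP-binding proteins that sit on internal membranes of lymphocytes. The 8 genes described here were chosen by name, as Gimap1, Gimap3, Gimap4, Gimap5, Gimap6, Gimap7, Gimap8 and Gimap9, which form one cluster on mouse chromosome 6. All 8 were found among the 45321 genes with summed transcript values. The proteins share a GTPase domain related to those of septins and dynamins, and several regulate how long resting T cells live. Loss of Gimap5 in mice and rats depletes peripheral T cells, loss of Gimap1 in mice depletes mature T and B cells, Gimap6 takes part in autophagy, and Gimap3 and Gimap5 have been linked to the Bcl-2 family of cell death regulators.

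RNA was measured in total CD4+ T cells of C57BL/6 mouse spleen, purified by removing other cells, in 4 groups of 3 libraries. CsA_PI cells received 1 µM cyclosporin A (CsA) for 1 h and then 10 nM PMA with 1 µM ionomycin for 2 h. The ethanol_PI cells received the ethanol vehicle for 1 h and the same stimulation. CsA_US cells received CsA for 1 h without stimulation, and ethanol_US cells received vehicle for 1 h without stimulation. Stimulated and unstimulated cells may thus also differ in time in culture, which was not tested. PMA switches on protein kinase C and ionomycin lets calcium into the cell, which imitates signalling from the T cell receptor. Bound to cyclophilin, CsA inhibits the calcium-dependent phosphatase calcineurin and so keeps NFAT transcription factors out of the nucleus. No label says that the replicates of a group were different animals, and p-values therefore cover the spread among these libraries, some of which may be technical.

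Libraries held 10523816 to 18468044 estimated counts, and a count of 0 allowed up to 0.162 to 0.285 CPM (counts scaled to the library total). The library labelled CsA_PI 2 stood apart. On the first principal component of log2 expression it lay at -45.5, while CsA_PI 1 and 3 lay at 37.2 and 34.9. The ethanol_PI libraries lay at 97.5 to 103, and the 6 unstimulated libraries between -59.7 and -44.4. On the first and second components the library nearest to CsA_PI 2 was ethanol_US 2, at -44.4 and -33.9 against -45.5 and -35.7. Why CsA_PI 2 lay there was not tested. The main differences of members that use CsA_PI 2 are given with and without it. The 10 T cell markers summed to 6445 to 9700 TPM (the share of transcripts, scaled for their length) in CsA_PI, 7264 to 9239 TPM in ethanol_PI, 6738 to 8441 TPM in CsA_US and 6354 to 9170 TPM in ethanol_US, with replicate 2 lowest in every group and no marker at 0. The 8 B cell markers summed to 2592 to 5050 TPM in CsA_PI, 2079 to 3037 TPM in ethanol_PI, 2484 to 3834 TPM in CsA_US and 2835 to 4758 TPM in ethanol_US, with none at 0 and replicate 2 highest in every group. The 8 myeloid and dendritic markers summed to 24.7 to 208 TPM in CsA_PI, 19.6 to 138 TPM in ethanol_PI, 26.6 to 174 TPM in CsA_US and 37.3 to 195 TPM in ethanol_US, again with replicate 2 highest in every group. The 6 CD8 and NK cell markers summed to 73.3 to 117 TPM and the 7 erythroid and platelet markers to 36.1 to 292 TPM over all libraries. The 5 endothelial markers summed to 21.7 to 93.0 TPM in CsA_PI, 30.4 to 38.4 TPM in ethanol_PI, 60.5 to 88.3 TPM in CsA_US and 79.8 to 95.3 TPM in ethanol_US. Of that list, Emcn was at 0 in every CsA_PI, CsA_US and ethanol_US library, but not in all of ethanol_PI. With CPM scaled as for the members below, Kdr had 0 to 1.48 CPM and Tek 0 to 1.27 CPM over all libraries. Pecam1, which T cells also express, had 57.3 to 181 CPM. In bulk RNA, fewer cells of a type and less RNA per cell cannot be told apart, and the part of these other cells in the results below was not tested.

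The cluster covers 124 kb, from base 48647234 to base 48770851 of chromosome 6 on GRCm38 (mm10), in the order Gimap8, Gimap9, Gimap4, Gimap6, Gimap7, Gimap1, Gimap5 and Gimap3. Gimap6 and Gimap3 lie on the minus strand and the other 6 on the plus strand. The 250 bases before the RefSeq start of Gimap5 and of Gimap7 are shown because these 2 members carried the called changes with stimulation. Capitals mark GGAAA, the core that NFAT proteins bind, or TTTCC, its reverse complement, and sequences run 5′ to 3′ on the plus strand of GRCm38.p6.
Gimap5, chr6:48745947-48746196: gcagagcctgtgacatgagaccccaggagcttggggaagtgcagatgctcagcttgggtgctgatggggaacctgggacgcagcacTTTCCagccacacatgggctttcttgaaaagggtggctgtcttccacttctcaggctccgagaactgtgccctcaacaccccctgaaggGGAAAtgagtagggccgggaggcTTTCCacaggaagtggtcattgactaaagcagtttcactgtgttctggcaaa
Gimap7, chr6:48718371-48718620: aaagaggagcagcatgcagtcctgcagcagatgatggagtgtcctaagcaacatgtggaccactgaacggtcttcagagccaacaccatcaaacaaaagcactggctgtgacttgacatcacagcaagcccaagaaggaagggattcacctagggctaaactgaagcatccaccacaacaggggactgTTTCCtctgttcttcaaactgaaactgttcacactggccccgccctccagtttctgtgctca
GGAAA was searched on both strands in the same 250-base window of every RefSeq promoter. The Gimap5 window held 3 matches and the Gimap7 window 1 match. Of 32841 RefSeq promoters, 55.6% held at least 1 match and 6.39% held 3 or more. The Gimap6 window also held 3 matches, that of Gimap1 held 2, those of Gimap3 and Gimap4 held 1 each, that of Gimap9 held 0, and the 2 windows of Gimap8, one per start, held 0 and 1. TGANTCA, the AP-1 site, was in none of these windows and in 6.75% of all promoters. Such a match is a description of the sequence, and binding was not measured.

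Compared per transcript length, the members spanned a wide range of levels in resting cells. Gimap6 was the most abundant, with 1908, 1341 and 2017 TPM in ethanol_US, and ranked 62nd among all genes by its group mean. Gimap8, the least abundant, had 27.1, 29.0 and 20.7 TPM there. The order of mean TPM in ethanol_US was Gimap6, Gimap3, Gimap4, Gimap9, Gimap1, Gimap7, Gimap5 and Gimap8, and within it Gimap7 and Gimap5 were the only neighbours whose libraries overlapped. In CsA_US the order was the same, but Gimap3, Gimap4 and Gimap9 each overlapped the next and Gimap7 lay above Gimap5. Gimap5 was 6th in CsA_PI, 3rd in ethanol_PI and 7th in both unstimulated groups. The other 7 kept their order in ethanol_PI, and in CsA_PI Gimap4 stood before Gimap3, with overlapping libraries. Gimap5 had 210, 116 and 228 TPM in CsA_PI, 648, 661 and 640 TPM in ethanol_PI, 100.3, 96.0 and 95.9 TPM in CsA_US, and 120, 110.3 and 108 TPM in ethanol_US. Its level in ethanol_PI overlapped that of Gimap4, a member linked in rodents to T cell death, which had 669, 622 and 646 TPM there. These levels and ranks sum all transcripts of a gene, coding or not. With protein-coding transcripts only, Gimap5 averaged 158 TPM in ethanol_PI, below Gimap1 with 235 TPM and Gimap4 with 587 TPM. In CsA_PI the coding part of Gimap5 averaged 65.7 TPM, below Gimap7 with 92.6 TPM. Gimap7 had 44.7, 24.3 and 32.7 TPM in ethanol_PI, just above Gimap8 with 20.3, 23.8 and 22.4 TPM in the same libraries. The 8 members together took 0.334% of all TPM in CsA_PI, 0.387% in ethanol_PI, 0.426% in CsA_US and 0.479% in ethanol_US.

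**Figure D1:**
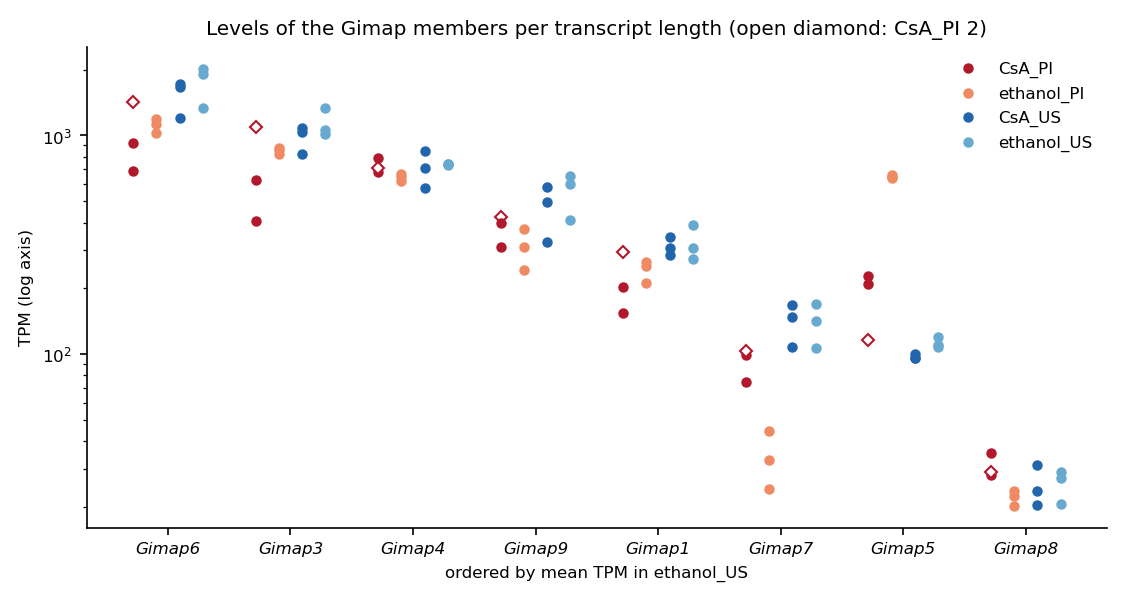
TPM of each Gimap member, summed over all its transcripts, on a log axis with 1 point per library. Points are grouped by CsA_PI, ethanol_PI, CsA_US and ethanol_US, and members are ordered by the mean in ethanol_US. Gimap5 stands at 640 to 661 TPM in ethanol_PI and at 108 to 120 TPM in ethanol_US, and the open diamond is CsA_PI 2.

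Stimulation of vehicle-treated cells changed 2 of the 8 members in opposite directions, raising Gimap5 and lowering Gimap7. The levels below are CPM scaled with TMM factors, which were 0.734 to 0.792 in ethanol_PI and 1.12 to 1.21 in ethanol_US, so that TPM and CPM changes differ in size. Gimap5 had 465, 408 and 426 CPM in ethanol_PI, against 71.5, 70.5 and 67.3 CPM in ethanol_US. Every stimulated vehicle library lay far above every unstimulated one. The fitted difference was 2.63 ± 0.25 on the log2 scale (SE), a 6.20-fold rise, with an adjusted p of 1.15e-05 (edgeR's quasi-likelihood test, Benjamini-Hochberg over 14398 genes). Gimap7, a GTPase that in humans is activated by pairing with a second GIMAP7 molecule, had 50.6, 24.5 and 33.6 CPM in ethanol_PI, against 97.7, 78.0 and 119 CPM in ethanol_US. The groups did not overlap. Its log2 difference was -1.44 ± 0.27, so that it was 2.71-fold lower in ethanol_PI (edgeR adjusted p = 0.00133). One member was thus called higher and 1 lower of 8, where 20.1% and 19.7% of all genes tested were called higher and lower, 39.8% in all. The median log2 difference of the 8 was 0.15, against -0.02 over all genes. Of all called genes 50.5% were higher, and 22.5% were when counts were scaled to library totals.

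The other 6 members did not pass the test with stimulation in vehicle. Gimap8, the largest protein of the family with several GTPase domains, averaged 75.7 ± 1.90 CPM in ethanol_PI and 58.8 ± 10.7 CPM in ethanol_US (SD, n = 3 each), a log2 difference of 0.37 ± 0.20. Gimap4 averaged 841 ± 58.0 CPM in ethanol_PI and 641 ± 5.84 CPM in ethanol_US, a log2 difference of 0.39 ± 0.18 with an edgeR adjusted p of 0.0998. Their libraries did not overlap between these groups in TMM-scaled CPM, although neither call was made. How many of all genes lacked such overlap was not counted. In TPM, Gimap4 was lower in ethanol_PI (622 to 669 TPM) than in ethanol_US (734 to 741 TPM). Gimap8 overlapped in TPM, with 20.3 to 23.8 TPM in ethanol_PI and 20.7 to 29.0 TPM in ethanol_US. Gimap9 averaged 259 ± 49.7 CPM in ethanol_PI and 336 ± 62.2 CPM in ethanol_US, a log2 difference of -0.37 ± 0.22. Gimap1, Gimap3 and Gimap6 had log2 differences of 0.15 ± 0.18, 0.16 ± 0.22 and -0.01 ± 0.21, and their groups overlapped. The direction of Gimap8, Gimap4, Gimap1 and Gimap3 depended on the scaling: scaled to library totals, their log2 differences were -0.24, -0.22, -0.47 and -0.45, and the median of all genes was -0.63 there against -0.02 with TMM. Scaled to library totals, Gimap6 (-0.63) and Gimap9 (-0.99) were also called lower, while Gimap5 (2.02) and Gimap7 (-2.07) kept their direction and call. The lowest Gimap6, Gimap9 and Gimap7 values of ethanol_PI, CsA_US and ethanol_US were all those of replicate 2. That replicate had the highest B cell and myeloid marker sums, and whether these are related was not tested.

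**Figure D2:**
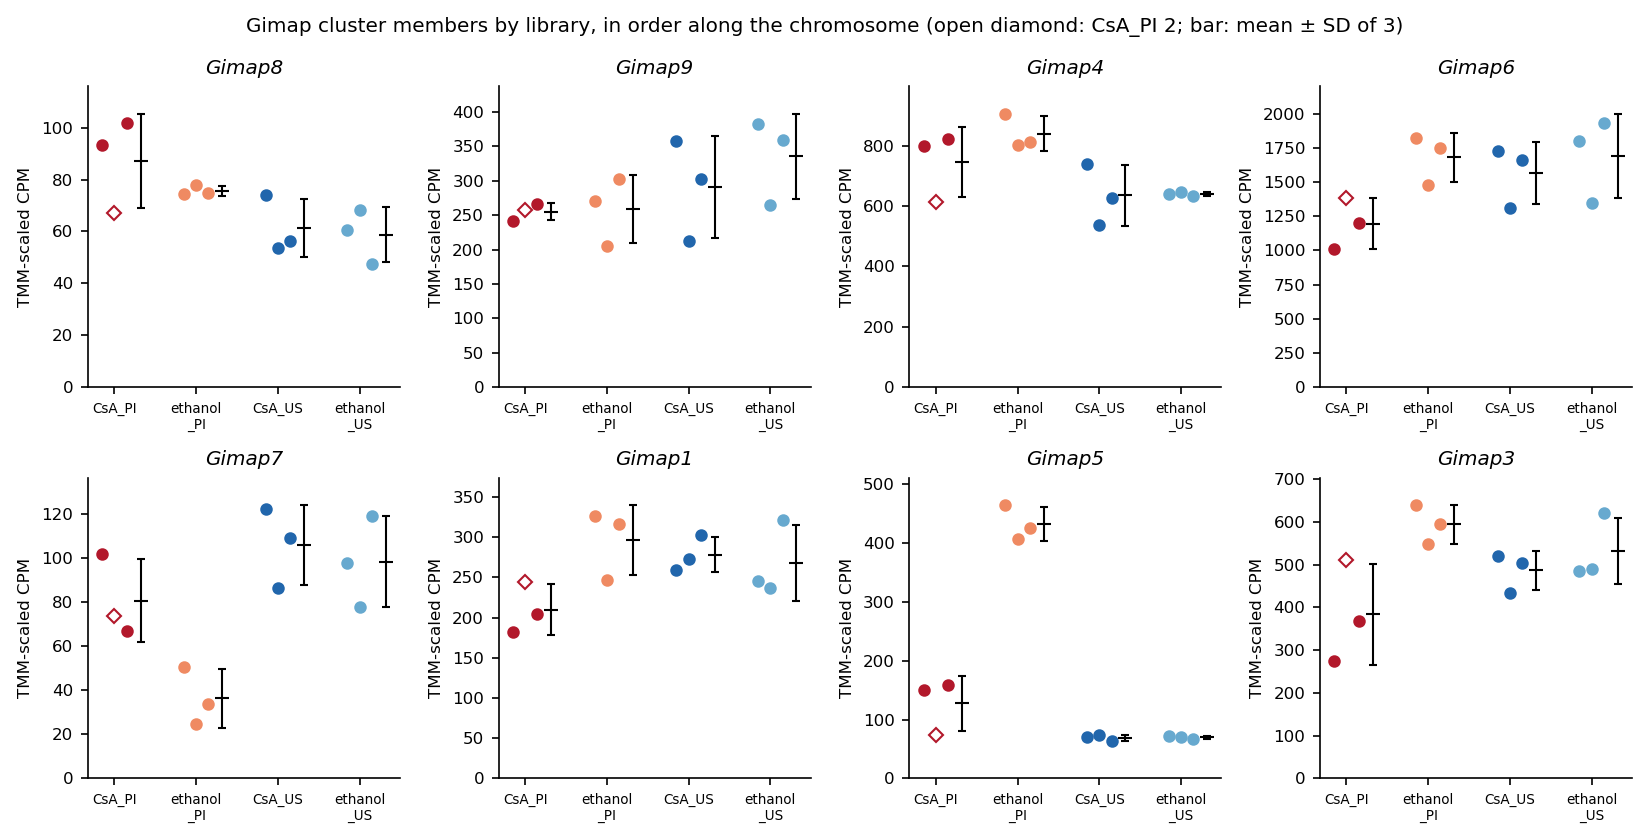
TMM-scaled CPM of each Gimap member in every library, by group, in order along the chromosome, with the mean and SD of 3 libraries beside the points. The 3 ethanol_PI libraries of Gimap5 lie at 408 to 465 CPM, those of Gimap7 at 24.5 to 50.6 CPM, and the open diamond is CsA_PI 2.

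CsA given before stimulation moved the same 2 members the opposite way, with Gimap5 lower and Gimap7 higher than in stimulated vehicle cells. Gimap5 had 150.3 and 159 CPM in CsA_PI 1 and 3 and 73.2 CPM in CsA_PI 2, against 465, 408 and 426 CPM in ethanol_PI. All 3 CsA libraries lay below all 3 vehicle libraries, but CsA_PI 2 was close to the unstimulated ethanol_US 2, with 70.5 CPM. The log2 difference was -1.76 ± 0.24 with all libraries, 3.40-fold lower in CsA_PI (edgeR adjusted p = 0.000252), and -1.45 ± 0.13 without CsA_PI 2 (adjusted p = 8.63e-06). Gimap7 had 102 and 66.6 CPM in CsA_PI 1 and 3 and 73.5 CPM in CsA_PI 2, against 50.6, 24.5 and 33.6 CPM in ethanol_PI. Its groups did not overlap either, and CsA_PI 2 was again close to ethanol_US 2, with 78.0 CPM. The log2 difference was 1.16 ± 0.27, 2.23-fold higher in CsA_PI (edgeR adjusted p = 0.00878), and 1.26 ± 0.30 without CsA_PI 2 (adjusted p = 0.00916). Of the 8 members 1 was called higher and 1 lower, where 10.3% and 12.7% of all genes tested were, 23.0% in all. The median log2 difference of the 8 was -0.33, against 0.06 over all genes. Of all called genes 44.8% were higher, and 70.6% were with library totals. This comparison and that of stimulation in vehicle share the ethanol_PI libraries.

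Without CsA_PI 2, 2 further members, Gimap3 and Gimap1, were called lower with CsA in stimulated cells, where 12.1% of 15057 genes tested were called lower, 10.4% higher and 22.5% in all. Gimap3, an endoplasmic reticulum member known in mice for its effect on the inheritance of mitochondrial DNA, had 275 and 367 CPM in CsA_PI 1 and 3 and 510.2 CPM in CsA_PI 2, against 639.8, 549 and 594 CPM in ethanol_PI. CsA_PI 2 lay close to the vehicle libraries and the other 2 well below them. The log2 difference was -0.85 ± 0.18 without CsA_PI 2 (edgeR adjusted p = 0.00428) and -0.63 ± 0.22 with it (adjusted p = 0.0549), and DESeq2 called Gimap3 with all libraries (-0.61, adjusted p = 0.0446). Gimap1 had 182 and 205 CPM in CsA_PI 1 and 3 and 244 CPM in CsA_PI 2, against 327, 247 and 316 CPM in ethanol_PI. Its log2 difference was -0.58 ± 0.18 without CsA_PI 2 (edgeR adjusted p = 0.0329) and -0.50 ± 0.18 with it (adjusted p = 0.0704). Gimap6 had 1008 and 1198 CPM in CsA_PI 1 and 3 and 1384 CPM in CsA_PI 2, against 1819.9, 1478 and 1747 CPM in ethanol_PI, and passed the test in neither fit (log2 difference -0.57 ± 0.20 without CsA_PI 2, edgeR adjusted p = 0.0603). The log2 differences of Gimap4, Gimap8 and Gimap9 were -0.17 ± 0.18, 0.21 ± 0.20 and -0.02 ± 0.22 with all libraries, and none was called. Without CsA_PI 2 they were -0.01 ± 0.17, 0.40 ± 0.19 and 0.0057 ± 0.24, and again none was called. Scaled to library totals, the differences of Gimap4 and Gimap9 were 0.15 and 0.32, and the median of all genes was 0.40 there against 0.06 with TMM.

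Stimulation in the presence of CsA left a smaller Gimap5 difference. Gimap5 had 150.3 and 159 CPM in CsA_PI 1 and 3 and 73.2 CPM in CsA_PI 2, against 69.8, 74.1 and 63.2 CPM in CsA_US. CsA_PI 1 and 3 lay above all 3 CsA_US libraries, and CsA_PI 2 lay within their range. The log2 difference was 0.88 ± 0.24 with all libraries (edgeR adjusted p = 0.0503) and 1.14 ± 0.13 without CsA_PI 2 (adjusted p = 3.12e-05). With all 12 libraries no member was called in this comparison. An unadjusted edgeR p under 0.05 was found for 3 of 8 members and for 3702 of the 14398 genes tested. After adjustment 5.28% of all genes were called, 3.90% higher and 1.38% lower. That count of 760 genes moved between 0 and 4321 with the processing. DESeq2 and edgeR with RLE scaling each called Gimap5. Without CsA_PI 2, 28.7% of all genes were called, 14.1% higher and 14.6% lower, and of the members Gimap5 and Gimap8 were called higher and Gimap3 and Gimap1 lower. Gimap8 had 93.3 and 102 CPM in CsA_PI 1 and 3 and 66.9 CPM in CsA_PI 2, against 74.0, 53.6 and 56.2 CPM in CsA_US (log2 difference 0.64 ± 0.19 without CsA_PI 2, edgeR adjusted p = 0.0213). Gimap3 had the CsA_PI values given above, 275 and 367 CPM and, in CsA_PI 2, 510.2 CPM, against 520.3, 435 and 505 CPM in CsA_US (log2 difference -0.63 ± 0.18 without CsA_PI 2, edgeR adjusted p = 0.0188). Gimap1 had 182 and 205 CPM in CsA_PI 1 and 3 and 244 CPM in CsA_PI 2, against 259.5, 273 and 303 CPM in CsA_US (log2 difference -0.55 ± 0.18 without CsA_PI 2, edgeR adjusted p = 0.0337). Gimap7 had 102 and 66.6 CPM in CsA_PI 1 and 3 and 73.5 CPM in CsA_PI 2, against 122, 86.5 and 109 CPM in CsA_US. These groups overlapped, and its log2 difference was -0.39 ± 0.27 (edgeR adjusted p = 0.381), and -0.35 ± 0.30 without CsA_PI 2 (adjusted p = 0.428).

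The difference between the stimulation effects under CsA and under vehicle, tested as an interaction, was called for Gimap5. Its effect under CsA was lower than that under vehicle by a log2 difference of -1.75 ± 0.34 (edgeR adjusted p = 0.00666), and of -1.44 ± 0.18 without CsA_PI 2 (adjusted p = 0.000211). Of 8 members 0 were called higher and 1 lower in the interaction, where 3.54% and 6.19% of all genes were and 9.72% in all. Of all called genes 36.4% were higher, and 64.1% were with library totals. The interaction of Gimap7 was 1.05 ± 0.38 and was not called (edgeR adjusted p = 0.107), nor was it without CsA_PI 2 (1.14 ± 0.40, adjusted p = 0.0904). Without ethanol_PI 1 it was 1.36 and called (adjusted p = 0.0489), as it was with library totals and with limma on log2 TPM. In unstimulated cells no member was called with CsA. The log2 differences of the 8 members between CsA_US and ethanol_US ran from -0.21 ± 0.22 for Gimap9 to 0.11 ± 0.27 for Gimap7. No member had an unadjusted edgeR p under 0.05, which 465 of the 14398 genes tested had. EdgeR and DESeq2 called 0 members, and edgeR called 0.00695% of all genes, a single one.

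**Figure D3:**
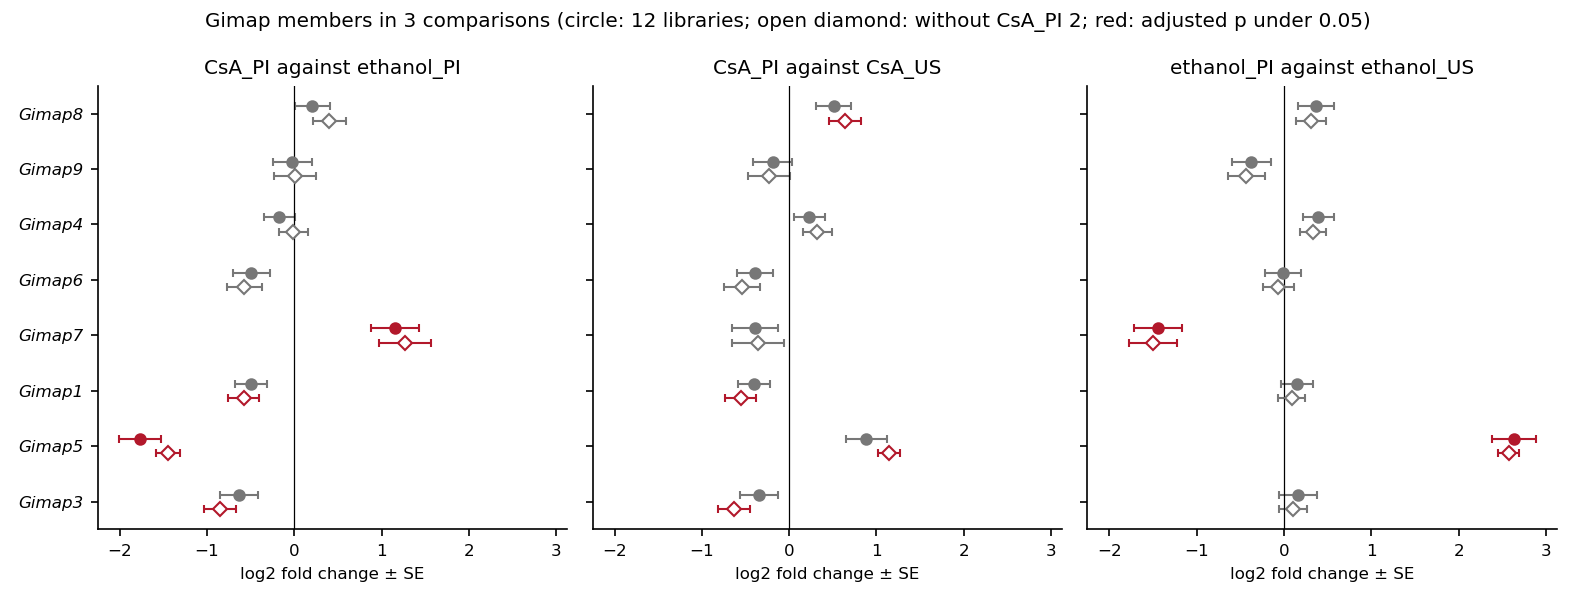
Log2 fold change with its SE for each Gimap member in CsA_PI against ethanol_PI, CsA_PI against CsA_US and ethanol_PI against ethanol_US, with all 12 libraries (circles) and without CsA_PI 2 (open diamonds), red where the adjusted p was under 0.05. Gimap5 and Gimap7 are red in both fits of the left and right panels.

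All 3 Gimap5 transcripts in the files rose with stimulation in vehicle, and the coding one was a smaller share of the gene in ethanol_PI than in ethanol_US. Gimap5-201 encodes the protein, while Gimap5-202 and Gimap5-203 are processed transcripts that share its first exon and then use a second exon inside its first intron, with no annotated coding part. To tell them apart, 30 bases of each are shown, from the start codon (capitals) of Gimap5-201 and from the start of the second exon of the others, all on the plus strand of GRCm38.
Gimap5-201, chr6:48750460-48750489: ATGgaacaccttcagaagagcacatatgga
Gimap5-202, chr6:48747281-48747310: gctgcctcactgtgtatagtgctgggatta
Gimap5-203, chr6:48747113-48747142: ttgtgtgaggaaatacactggtgccactgg
The coding Gimap5-201 had 63.1 and 82.5 TPM in CsA_PI 1 and 3 and 51.6 TPM in CsA_PI 2, 162, 151 and 163 TPM in ethanol_PI, 49.2, 47.4 and 43.7 TPM in CsA_US, and 51.8, 48.3 and 48.2 TPM in ethanol_US. Gimap5-202 had 93.5 and 91.5 TPM in CsA_PI 1 and 3 and 47.8 TPM in CsA_PI 2, 293, 279 and 251 TPM in ethanol_PI, and 44.1 to 53.8 TPM in ethanol_US. Gimap5-203 had 53.6 and 54.4 TPM in CsA_PI 1 and 3 and 17.0 TPM in CsA_PI 2, 193, 230.1 and 227 TPM in ethanol_PI, and 12.8 to 17.9 TPM in ethanol_US. For each transcript the ethanol_PI libraries lay above those of every other group. The log2 differences between ethanol_PI and ethanol_US were 2.08 ± 0.20, 2.91 ± 0.32 and 4.24 ± 0.49 for Gimap5-201, Gimap5-202 and Gimap5-203 (edgeR on transcript counts, adjusted p = 0.000197, 0.000341 and 0.000461). Between CsA_PI and ethanol_PI they were -1.43 ± 0.20, -1.96 ± 0.31 and -2.49 ± 0.45 (adjusted p = 0.00209, 0.00398 and 0.00895). Gimap5-201 made up 24.4 ± 1.33% of Gimap5 TPM in ethanol_PI and 43.9 ± 0.69% in ethanol_US (SD, n = 3 each), and Gimap5-203 made up 33.4 ± 3.08% in ethanol_PI and 13.3 ± 2.56% in ethanol_US. These shares were not tested. The split between transcripts rests on the estimate that assigned shared reads. In all, 19 of the 21 transcripts of the members in the files passed the filter, and with stimulation in vehicle 3 were called higher and 1, Gimap7-201, lower, where 8.52% and 8.76% of 35862 transcripts were and 17.3% in all.

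**Figure D4:**
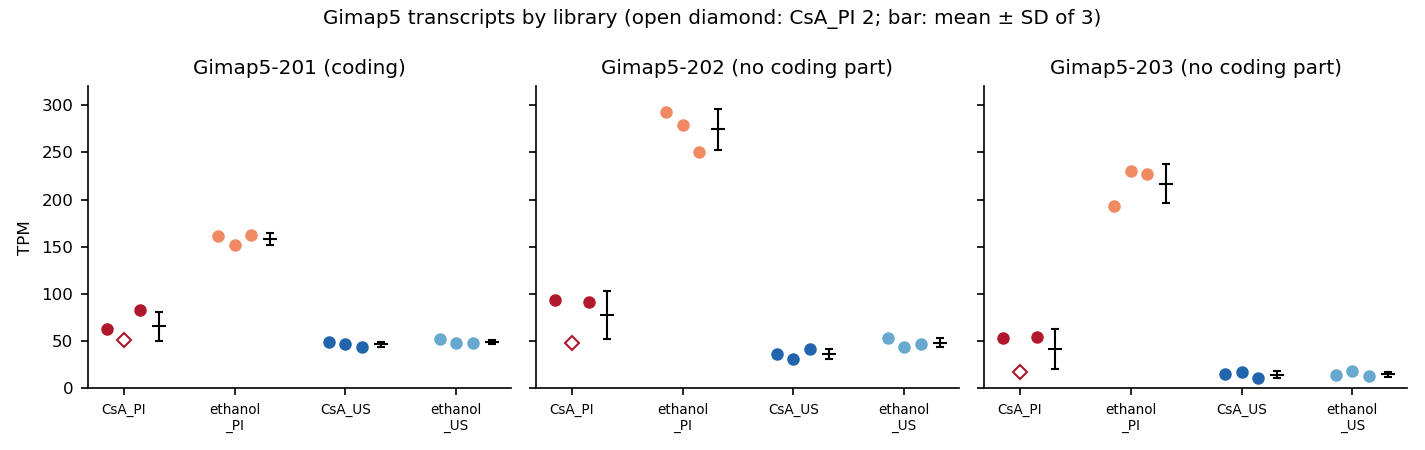
TPM of the 3 Gimap5 transcripts in every library, by group, with the mean and SD of 3 libraries beside the points. In ethanol_PI the coding transcript Gimap5-201 lies at 151 to 163 TPM, Gimap5-202 at 251 to 293 TPM and Gimap5-203 at 193 to 230.1 TPM.

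Gimap3 and Gimap5 are close copies, and reads could be shared between them. Cut into words of 31 bases, the Gimap3 transcript shared 335 words with Gimap5, 38.2% of its own and 14.2% of those of Gimap5. All were in Gimap5-201, and Gimap5-202 and Gimap5-203 shared none. The single Gimap3 transcript in the files was 906 bases long, its coding length with the stop codon, while the annotation gives 1968 bases, so its untranslated ends did not enter its level. No other pair of members shared a word. The read-through gene Gm28053 overlaps Gimap7, Gimap1 and Gimap5 on the same strand and had 15 to 49 counts in a library. Gimap1os overlaps 2391 bases of Gimap1 on the opposite strand, introns included, and had 429 to 1068 counts. In exons the overlap was 103 bases, with 73 words of 31 bases in common between opposite strands, 3.50% of those of Gimap1. Since the sources used here do not state strand in the counting, reads within these bases cannot be told apart.

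Genes beside the cluster were also read. Of 42 other annotated genes within 300 kb, 26 were in the files and 11 passed the filter with all libraries. With stimulation in vehicle 1 of these 11, Gm7887, was called higher and 2, Krba1 and Zfp775, lower, against 20.1% and 19.7% of all genes. Without CsA_PI 2, 12 were tested, of which 1 was called higher and 4 lower, against 20.8% and 22.9% of all genes and 43.7% in all. Gm7887 had 0 to 53 counts in a library, with 53, 26 and 0 counts in ethanol_PI and 0 in every ethanol_US library. Krba1, a gene with a KRAB-A domain, had 14.9, 13.9 and 10.1 CPM in ethanol_PI, against 34.6, 32.2 and 21.7 CPM in ethanol_US (log2 difference -1.19 ± 0.29, edgeR adjusted p = 0.00657). Zfp775 had 1.31, 0.582 and 3.45 CPM in ethanol_PI, against 7.28, 7.19 and 5.59 CPM in ethanol_US (log2 difference -1.92 ± 0.59, edgeR adjusted p = 0.0210), and it was not called without ethanol_PI 1 (-1.76) or ethanol_PI 2 (-1.50). With CsA in stimulated cells Krba1 was the only neighbour of the 11 called (log2 difference 0.97 ± 0.29, edgeR adjusted p = 0.0312), and CsA_PI 2, at 33.8 CPM, was its highest CsA_PI library. That call was lost without CsA_PI 2 (0.73), CsA_PI 3 (0.94), ethanol_PI 1 (1.08), ethanol_PI 2 (1.03) or ethanol_PI 3 (0.82). Without CsA_PI 2, 0 neighbours were called higher and 1 lower of 12 with CsA in stimulated cells, against 10.4% and 12.1% of all genes. Within the cluster the 2 called members are separated by Gimap1, which lies between Gimap7 and Gimap5 and was called in neither comparison with all libraries.

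**Figure D5:**
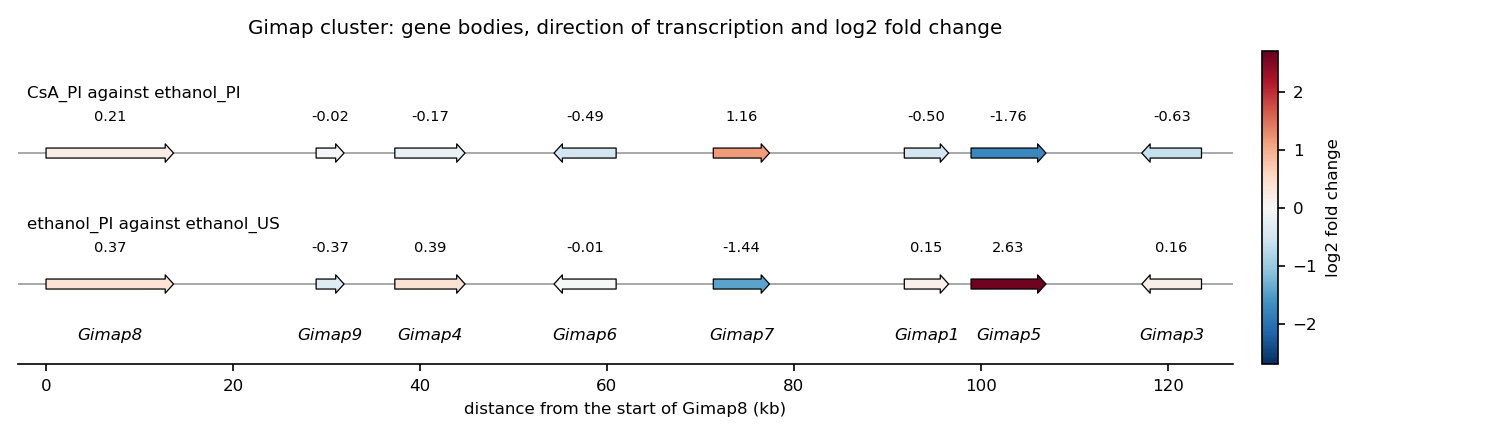
Gene bodies of the Gimap cluster to scale, by distance in kb from the start of Gimap8, with arrows in the direction of transcription and colour for the log2 fold change of CsA_PI against ethanol_PI (upper row) and ethanol_PI against ethanol_US (lower row). Gimap5 (-1.76 and 2.63) and Gimap7 (1.16 and -1.44) are the only deeply coloured genes, with Gimap1 between them.

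Beside the members, 3 lists of related genes were read. They were chosen with earlier results of these data known, so their counts and medians beside those of all genes are a description, not a test. Of 22 genes of lymphocyte survival and quiescence, 3 were called higher and 13 lower with stimulation in vehicle, where 20.1% and 19.7% of all genes were, and their median log2 difference was -1.23, against -0.02 over all genes. S1pr1, the receptor for exit from lymphoid organs, had a log2 difference of -4.32 ± 0.22, Cdkn1b, a cell cycle inhibitor, -4.04 ± 0.54, Txnip, an inhibitor of glucose uptake, -3.98 ± 0.96, and Il7r, the interleukin-7 receptor, -3.24 ± 0.35 (edgeR adjusted p = 6.95e-07, 0.000177, 0.00777 and 2.41e-05). With CsA in stimulated cells 10 of these 22 were called higher and 1 lower, where 10.3% and 12.7% of all genes were, with a median of 0.69 against 0.06 over all genes. S1pr1 (3.67 ± 0.22), Txnip (3.08 ± 0.92), Tcf7 (2.65 ± 0.25), a transcription factor of naive T cells, and Cdkn1b (2.58 ± 0.51) had the largest of these log2 differences. Without CsA_PI 2, S1pr1 (3.47), Tcf7 (2.80) and Cdkn1b (1.56) were still called, and Txnip (0.65) was not (edgeR adjusted p = 0.0903). The Txnip call was also lost without CsA_US 3 (3.16) or ethanol_PI 1, 2 or 3 (3.02, 3.05 and 3.20). Without CsA_PI 2, 5 of the 22 were called higher and 13 lower with stimulation in vehicle, against 20.8% and 22.9% of all genes. With CsA in stimulated cells 10 were then called higher and 2 lower, against 10.4% and 12.1% of all genes. Gimap7 moved in the direction of most called genes of this list in both comparisons, and Gimap5 in the other.

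Of 13 genes whose proteins have been reported to bind or depend on Gimap proteins, 5 were called higher and 3 lower with stimulation in vehicle, or 8 called against 39.8% of all genes, and their median log2 difference was 0.33, against -0.02 over all genes. Bcl2l1, which encodes the survival protein Bcl-xL, had a log2 difference of 2.96 ± 0.36, and Hspa8, a constitutive chaperone, of 1.77 ± 0.29 (edgeR adjusted p = 7.16e-05 and 0.000469). Bad, which promotes cell death, had a log2 difference of -3.24 ± 0.64 and Gsk3b, a kinase linked to Gimap5 in T cells, of -1.71 ± 0.29 (edgeR adjusted p = 0.00202 and 0.000663). With CsA in stimulated cells 1 was called higher and 3 lower, against 10.3% and 12.7% of all genes, with a median of 0.08 against 0.06. Bcl2l1 (-1.77 ± 0.35), Hspa8 (-1.17 ± 0.28) and Bcl2 (-0.97 ± 0.18) were lower, and Bad was higher (2.25 ± 0.63), a call that was lost without CsA_PI 2 (0.92, edgeR adjusted p = 0.0733), ethanol_PI 1 (1.97) or ethanol_PI 2 (2.24). Without CsA_PI 2, 3 were called higher and 3 lower in that comparison, against 10.4% and 12.1% of all genes.

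Of 11 genes of the Notch pathway, read because Notch1 raises GIMAP5 in human T cell leukaemia, 10 were tested, since Notch3 did not pass the filter. With stimulation in vehicle 2 were called higher and 1 lower, against 20.1% and 19.7% of all genes, with a median log2 difference of 0.11 against -0.02. They were Notch1 (2.97 ± 0.31), Rbpj, the DNA-binding partner of Notch (1.75 ± 0.30), and Notch2 (-0.71 ± 0.25), with edgeR adjusted p of 1.83e-05, 0.000710 and 0.0367. The Notch2 call was lost without ethanol_PI 1, 2 or 3 (-0.62, -0.79 and -0.74) or without ethanol_US 1 or 2 (-0.81 and -0.64). With CsA in stimulated cells 0 were called higher and 2 lower, against 10.3% and 12.7% of all genes, with a median of -0.40 against 0.06. They were Notch1 (-1.85 ± 0.29) and the coactivator gene Maml2 (-1.20 ± 0.29), with edgeR adjusted p of 0.000731 and 0.0107. Without CsA_PI 2, 1 was called higher and 2 lower in that comparison, against 10.4% and 12.1% of all genes. With stimulation in vehicle 2 were then called higher and 1 lower, against 20.8% and 22.9% of all genes.

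The members did not share 1 profile. The root mean square difference in log2 CPM over the 12 libraries between a member and the mean of the 8, each centred on its own mean, was 1.01 for Gimap5 and 0.77 for Gimap7, against 0.15 to 0.32 for the other 6. The 6 genes most like the mean of the members, among those with at least 10 CPM on average, were Mrps17, Spg21, Maea, Psmc3, G3bp2 and Ints14, with differences of 0.10 to 0.11. Because Gimap5 and Gimap7 departed from that mean, the genes most like each were also taken, a choice made after their values were seen. Those most like Gimap5 were Npm3 (0.11), Snu13 (0.13), Wdr75 (0.14), Eif4e (0.15), Riox1 (0.15) and Dph2 (0.15). Those most like Gimap7 were Tnfaip8l1, Klrb1c and Tmem120a (0.22 each), Zmynd8 (0.26), Mapk1ip1 (0.26) and Lpin1 (0.26). Likeness was measured over the same 12 libraries and is a description.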

How the data were processed

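Polyadenylated RNA of 12 mouse CD4+ T cell samples was sequenced as SMART-seq libraries, which copy RNA to full-length cDNA and amplify it by PCR. Per the submitters' processing notes, cutadapt and kallisto were used with the build mm10. Versions and the transcript annotation are not given in the sources used here. The deposited tables hold estimated counts per transcript, not scaled for depth, and, per the file headers, TPM, which the authors' tables scale within each sample for length and depth. Of 109617 transcripts listed, 108214 matched GENCODE vM21 identifiers on GRCm38, and the 1403 others, with 0.494% to 0.628% of the counts of a library, were not used for genes.

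Gene sums of the estimated counts, rounded to whole numbers, were tested with edgeR 4.0.16 under R 4.3.3. Scaling was by TMM, genes with low counts were removed by group (at least 10 counts, total at least 15), and robust quasi-likelihood models were fitted to all 12 libraries at once, which gave 5 comparisons 1 common spread. Calls were made at 0.05 after Benjamini-Hochberg adjustment over all genes tested. The SE of a log2 fold change was its size over the root of F. The fit was tested on simulated counts. Transcript counts were tested in the same way. Intervals and floors (3 counts) cover counting error only, since PCR copies are not independent molecules.

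The members and lists were chosen with earlier results of these data known. Named were the members, neighbours within 300 kb that passed the filter, up to 4 called genes per list and comparison with the largest change, and the 6 genes most like the members. Replicate numbers come from the labels, which do not say what they share. For equally numbered libraries, the deviations from the group means were correlated across genes: 0.143 to 0.319 for ethanol_PI and ethanol_US, 0.107 to 0.208 for CsA_PI and ethanol_PI, 0.196 to 0.325 for CsA_US and ethanol_US, and 0.0333 to 0.123 for CsA_PI and CsA_US. By the limit of 0.1 they count as pairs for the first 3. The values for ethanol_US and CsA_PI, which were not compared, were 0.133 to 0.264. Since the CsA_PI mean includes CsA_PI 2, the deviations of CsA_PI 1 and 3 partly carry its departure. Correlations with CsA_PI thus cannot show what the numbers share. The main fit had no block. Alternatives were RLE scaling, library totals, no filter, DESeq2 1.42.0, limma 3.58.1 on log2(TPM + 1) and log2(TPM + 0.1), the compared groups only, a replicate block, protein-coding transcripts only, and each library left out. Promoter sequences are from RefSeq (GRCm38.p6) and matched all 8 members by symbol, and transcript sequences are from GENCODE vM21.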

Additional observations from a re-analysis of the deposited data

Results flagged for a closer look

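The stimulation effect on Gimap5 differed between CsA and vehicle by a test of the difference itself. The interaction was -1.75 ± 0.34 on the log2 scale (edgeR adjusted p = 0.00666), and -1.44 ± 0.18 without CsA_PI 2 (adjusted p = 0.000211). Gimap5 was lower in 3 of 3 CsA_PI libraries than in every ethanol_PI library. Of these 3, CsA_PI 2 lay among the unstimulated libraries on the first principal component, and ethanol_US 2 was nearest to it on the first and second components. The interaction test was passed by 1 Gimap5 transcript, the coding Gimap5-201, with an interaction of -1.47 ± 0.28 (edgeR on transcript counts, adjusted p = 0.0282). The interactions of Gimap5-202 (-1.66 ± 0.43) and Gimap5-203 (-2.57 ± 0.63) were not called with all libraries and were called without CsA_PI 2.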

How the results depend on the processing

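The calls of Gimap5 and Gimap7 with stimulation in vehicle and with CsA in stimulated cells, and that of the Gimap5 interaction, held under all 21 alternatives. Counted were all 8 members with stimulation in vehicle and with CsA in stimulated cells, Gimap1, Gimap3, Gimap5, Gimap7 and Gimap8 with stimulation under CsA, and Gimap5 and Gimap7 in the interaction. Of their 483 values under alternatives, 433 kept direction and side of the threshold, 18 gained a call, and 32 turned their sign without being called in either fit. Of the 17 other values of a member in a comparison, 10 turned their sign under some alternative, among them the interactions of Gimap4 (-0.25 to 0.23) and Gimap6 (-0.47 to 0.0134), and 0 were called in any. With stimulation in vehicle, 3 members were called lower with library totals (Gimap6, Gimap7 and Gimap9) and 2 with limma at either pseudocount (Gimap7 and Gimap9). Signs turned there, in the order library totals, limma on log2(TPM + 1) and limma on log2(TPM + 0.1), for Gimap8 (-0.24, -0.19 and -0.20), Gimap4 (-0.22, -0.19 and -0.19), Gimap1 (-0.47, -0.40 and -0.40) and Gimap3 (-0.45, -0.41 and -0.41). With CsA in stimulated cells they turned for Gimap4 (0.15, 0.17 and 0.17) and Gimap9 (0.32, 0.30 and 0.30), and for Gimap9 also without a filter (0.0575), with only the groups compared (0.0506), with the replicate block (0.0068) and with protein-coding transcripts only (0.0356). These scalings moved the median of all genes, and other causes were not tested. DESeq2 called 2 members lower with CsA in stimulated cells, and RLE scaling and DESeq2 each called 1 member higher with stimulation under CsA. In the interaction 1 member, Gimap7, was called higher with library totals, with limma at both pseudocounts and with the replicate block (1.09, adjusted p = 0.0326). The block, with the numbers as pairs, changed no other count of members.

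Leaving out 1 library at a time, members called lower with CsA in stimulated cells ranged from 1 to 3, members called higher and lower with stimulation under CsA from 0 to 2 each, and members called higher in the interaction from 0 to 1. The difference of Gimap9 with CsA in stimulated cells ranged from -0.16 to 0.11 and that of Gimap6 with stimulation in vehicle from -0.16 to 0.0661. Over all genes, 760 were called with stimulation under CsA, against 0 to 4321 under the alternatives: 5 with library totals, 1891 with DESeq2, 30 and 29 with limma, 441 with the replicate block and 0 with only the groups compared. In the interaction 1400 were called, against 787 without ethanol_US 1, 795 without CsA_US 3, 795 without ethanol_PI 1 and 886 without ethanol_PI 3. With CsA in unstimulated cells the count was 1, against 0 to 17. The split of reads between Gimap3 and Gimap5 and between transcripts rests on the authors' estimate, and 3 libraries a group limit the detection of small differences.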
